A study of Mus musculus with 48 samples.

Results

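The response of the cerebellum to polyglutamine-expanded ataxin-1 at 5 weeks of age was compared between 2 mouse models of spinocerebellar ataxia type 1 (SCA1), gene by gene, as a model by genotype interaction. This comparison used 12 of the 48 RNA-seq libraries of the series, 3 male mice in each of 4 groups, and 12350 of the 22000 genes named once in both tables of values, namely those with a mean of at least 0.5 FPKM (fragments per kilobase of transcript, scaled to the mapped fragments of the library) in all 4 groups. The ATXN1-82Q Tg mice carried a human *ATXN1* transgene with an expanded CAG repeat under the *Pcp2* promoter, which directs it to Purkinje cells (PCs), on the FVB/NJ strain, and their controls were wild-type FVB/NJ mice (WT/FVB). The *Atxn1*-154Q/2Q KI mice carried the expanded repeat in 1 allele of the mouse *Atxn1* gene at its own locus, so that the mutant protein is made wherever *Atxn1* is active, on C57BL/6J, and their controls were wild-type C57BL/6J mice (WT/C57). The interaction is the log2 ratio of Tg to WT/FVB minus the log2 ratio of KI to WT/C57. It is negative where a gene was lower in Tg, relative to its own controls, than in KI. Strain, kind of allele and table of values go together in this design and cannot be told apart, and since each table was normalised by itself only ratios within a table were set against each other.

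Ataxin-1 is a nuclear protein that binds the transcriptional repressor Capicua, and its expanded form disturbs transcription in neurons. PCs are the only output neurons of the cerebellar cortex. They express at high level the genes of a pathway in which glutamate from parallel fibres acts on metabotropic receptors, Gq proteins activate phospholipase C beta, and inositol trisphosphate opens the calcium store through its receptor. Buffers such as calbindin and pumps such as SERCA3 then limit and remove the calcium. Granule cells, which send out the parallel fibres, outnumber PCs by far. The tissue also holds interneurons, Bergmann glia, other astrocytes, oligodendrocytes and microglia.

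The interaction was called (adjusted p under 0.05, limma with Benjamini-Hochberg adjustment over all genes tested) for 102 of 12350 genes, or 0.826%, and for 96 of these the difference was negative (0.777% of all genes). In the same fit the Tg to WT ratio was called for 306 genes (2.48%), 292 of them lower in Tg (2.36%) and 14 higher (0.113%), and the KI to WT ratio for 11 genes (0.0891%), 8 of them lower in KI (0.0648%) and 3 higher (0.0243%). With replicate numbers as a block in both tables the KI count was 35 and the interaction count 147. With the block in the KI table only, a setting chosen after seeing the data, they were 100 and 180. The labels give no pairing, and of the KI libraries only replicate 1 correlated best with its own number. Leaving out 1 library at a time, the interaction count was lowest without WT/FVB replicate 1 (66) and without Tg replicate 2 (67), and the KI count ranged from 7 without WT/C57 replicate 2 to 20 without KI replicate 2. Both ratios were below 0 for 84 of the 102 genes. The Tg ratio was larger in size in 94 genes and the KI ratio in 8. Among the 96 negative genes the median log2 ratio was -0.88 in Tg and -0.18 in KI, against medians of -0.00 in both models over all genes tested. The 3 Tg libraries were all below the 3 WT/FVB libraries in 92 of the 96 genes, and the 3 KI libraries were all below the 3 WT/C57 libraries in 59, above them in 8 and overlapped them in 29. Over all genes tested, Tg libraries lay wholly below their controls in 12.6% and KI libraries in 5.21%, and KI libraries lay wholly above theirs in 4.3%. The same libraries chose the 96 genes, so the medians and separations of those genes describe the choice and do not test it. In RNA from whole tissue, fewer cells of a type and less RNA per cell cannot be told apart, which holds for every value given here. All log2 values are on the log2(FPKM + 0.1) scale, which understates the change of genes of low level, errors are standard errors (SE) of that fit, n = 3 mice per group, and p-values measure the spread between these mice.

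**Figure D1:**
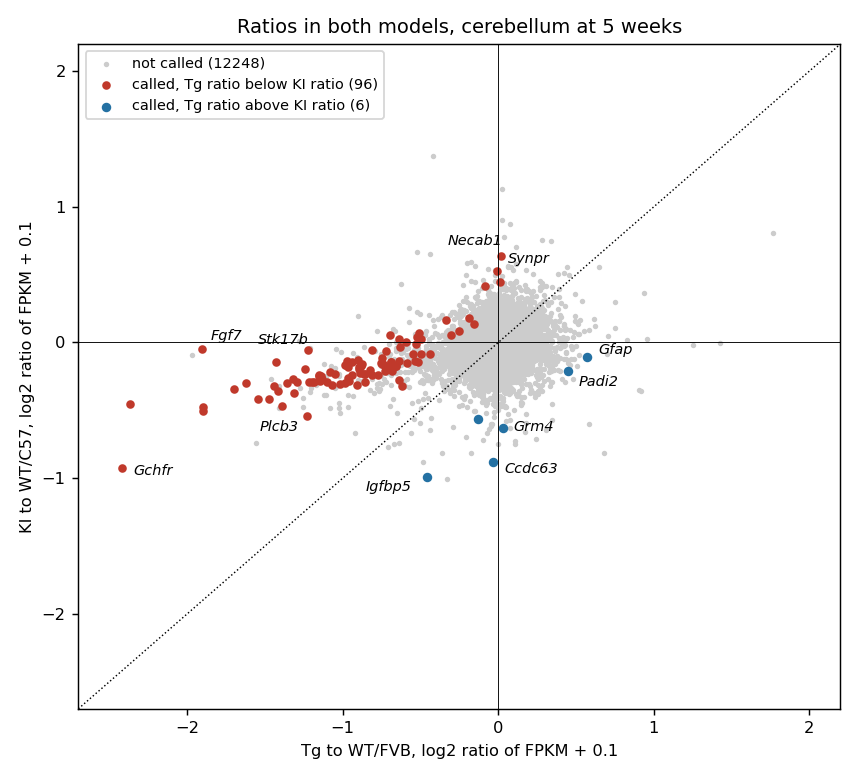
Each point is a gene of the cerebellum at 5 weeks, with its Tg to WT/FVB log2 ratio on the horizontal axis and its KI to WT/C57 log2 ratio on the vertical axis; the 102 genes called in the interaction are coloured, the dotted diagonal marks equal ratios and 2 genes lie outside the axes. The 96 red points lie above the diagonal, most of them far to the left and slightly below 0 on the vertical axis, and the 6 blue points lie below it.

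The libraries were of similar depth within a table, as far as the steps between low FPKM values show it: the deepest exceeded the shallowest 1.24 times in the Tg table and 1.32 times in the KI table, and between 12861 and 13002 genes reached 1 FPKM. PC and granule cell genes were abundant in every library, whereas only 6 of 24 genes that mark neurons of regions next to the cerebellum could be tested. The KI and WT/C57 libraries numbered 1 deviated from their group means together (r = 0.56 across genes). Without both of them 114 genes were called in the interaction, 85 of them among the 102, and all 102 had the same sign. Choroid plexus genes varied widely in every group, with summed levels from 114 to 1775 FPKM in Tg, 999 to 2005 in WT/FVB, 436 to 2169 in KI and 585 to 1823 in WT/C57. Tg replicate 3 was the lowest, and without it 81 genes were called.

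*Atxn1* itself did not pass the test in either ratio. It read 10.1, 11.4 and 10.5 FPKM in WT/FVB and 12.0, 12.4 and 12.6 in Tg, so that all Tg libraries were above their controls, and 9.81, 11.0 and 11.3 in WT/C57 and 8.36, 11.8 and 12.0 in KI, which overlapped. The interaction was 0.22 ± 0.17 (SE, limma adjusted p = 0.90). These values count reads placed on the mouse gene, which shares exonic sequence with *Gmpr* on the other strand. The transgene is human and the KI allele belongs to the same mouse gene as its partner, so that they check neither genotype.

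Of 19 named genes looked for, 16 had a promoter entry, and the promoters of 4 are shown as examples. These are *Rgs8* and *Stk17b*, much lower in Tg than in KI, *Plcb3*, lower in both models, and *Gfap*, higher in Tg. Each runs from 250 bases before to 50 bases after a RefSeq transcript start (GRCm38.p6, the patch level of mm10), 5′ to 3′ on the gene's strand. *Rgs8* is at chr1:153665423-153665722, plus strand, the third of its 3 listed starts and the one whose window holds the half-site, *Stk17b* at chr1:53785166-53785465, minus strand, *Plcb3* at chr19:6969765-6970064, minus strand, and *Gfap* at chr11:102897151-102897450, minus strand. Capitals mark AGGTCA or its complement TGACCT, a half-site that nuclear receptors bind, ROR alpha among them.
Rgs8: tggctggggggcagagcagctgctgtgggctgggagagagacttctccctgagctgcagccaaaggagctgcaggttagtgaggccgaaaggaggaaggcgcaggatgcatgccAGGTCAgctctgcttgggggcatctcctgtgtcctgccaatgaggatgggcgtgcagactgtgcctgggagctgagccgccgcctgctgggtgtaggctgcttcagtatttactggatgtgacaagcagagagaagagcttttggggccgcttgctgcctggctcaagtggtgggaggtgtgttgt
Stk17b: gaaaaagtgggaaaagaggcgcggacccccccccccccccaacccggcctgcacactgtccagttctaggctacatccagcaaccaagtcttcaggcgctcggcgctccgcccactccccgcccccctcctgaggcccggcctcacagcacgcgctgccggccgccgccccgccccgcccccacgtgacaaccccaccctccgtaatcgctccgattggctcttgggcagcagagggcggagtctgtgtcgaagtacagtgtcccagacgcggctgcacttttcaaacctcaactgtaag
Plcb3: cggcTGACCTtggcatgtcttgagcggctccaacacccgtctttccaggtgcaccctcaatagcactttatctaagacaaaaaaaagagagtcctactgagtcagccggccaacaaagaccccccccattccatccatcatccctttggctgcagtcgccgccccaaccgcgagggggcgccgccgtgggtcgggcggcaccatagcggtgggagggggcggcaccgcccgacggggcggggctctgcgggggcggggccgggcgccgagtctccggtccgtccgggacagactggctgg
Gfap: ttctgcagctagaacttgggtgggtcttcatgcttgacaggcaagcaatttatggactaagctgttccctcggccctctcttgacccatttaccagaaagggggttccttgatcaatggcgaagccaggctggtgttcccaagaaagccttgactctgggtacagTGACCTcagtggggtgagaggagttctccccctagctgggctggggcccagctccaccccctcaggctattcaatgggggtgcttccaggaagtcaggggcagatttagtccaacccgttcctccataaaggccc
The half-site began at -136 in *Rgs8*, at -246 in *Plcb3* and at -85 in *Gfap*, where -1 is the base before the start, and was in neither the *Stk17b* window nor those of the other 2 *Rgs8* starts. On either strand it was found in 13 of the 72 genes called in the interaction that have a promoter entry (18.1%), in 14.4% of the 9061 genes tested that have one and in 16.3% of all 32851 promoters. The Capicua octamers TGAATGAA and TGAATGGA, on either strand, were found in 1 of the 72 (1.39%; *Kcnip1*, named after the search), in 1.84% of the genes tested and in 2.47% of all promoters. These are matches of letters, not sites of binding.

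PC genes held more called genes than any other list examined. Of 31 PC genes, 26 were tested, and 20 of them fell in Tg, 1 fell in KI (*Plcb3*) and 17 were called in the interaction, all negative. Over all genes tested, 2.36% were called lower in Tg, 0.0648% lower in KI and 0.826% in the interaction. For the 26 PC genes the other values were as follows. Their median log2 ratio was -0.96 in Tg and -0.24 in KI. All Tg libraries were below their controls in 24 of the 26, against 12.6% of all genes. The KI ratio was below 0 in 24 of the 26, against 50.6% of all genes. All KI libraries were below their controls in 14 of the 26, against 5.21% of all genes. Among the 26, the replicate block in both tables gave 2 calls in KI and 18 in the interaction. The block in the KI table only gave 7 calls in KI and 19 in the interaction. The summed level of the 26 genes was 4395 to 4660 FPKM in WT/FVB and 2332 to 2474 in Tg, and 4738 to 5231 in WT/C57 and 4132 to 4338 in KI, with no overlap in either model. Without the libraries numbered 1 of the KI table the interaction was again called for 17 of these genes.

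**Figure D2:**
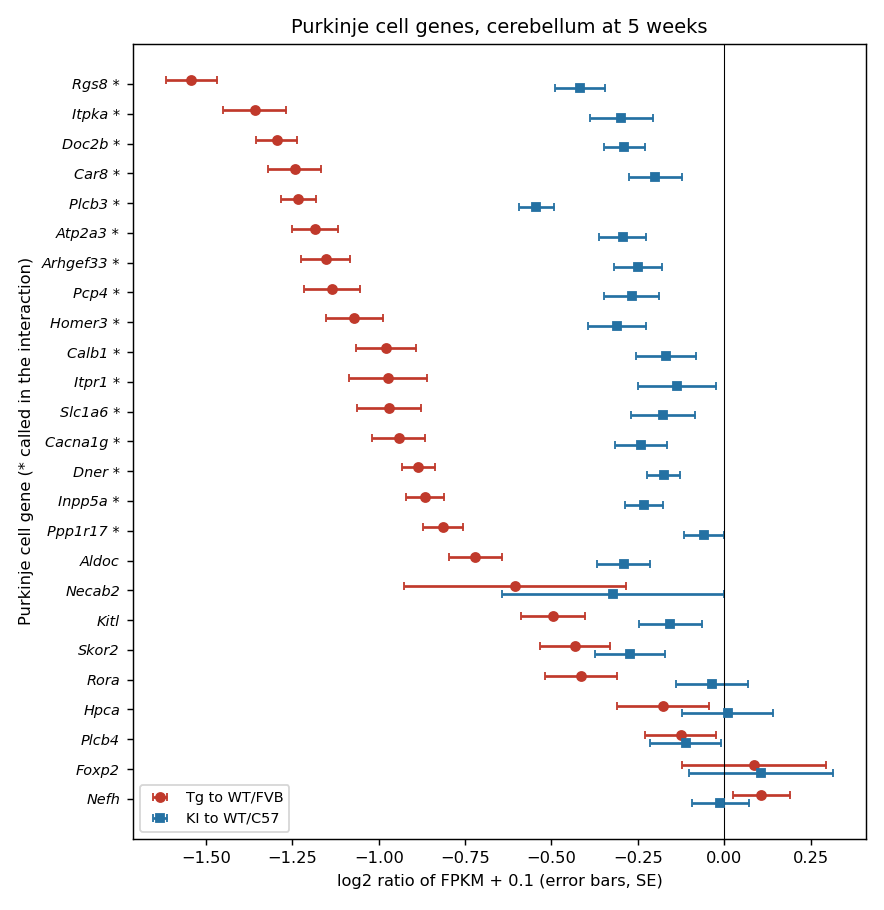
Log2 ratios of PC genes, with their standard errors, in Tg (to WT/FVB) and in KI (to WT/C57). Asterisks mark genes called in the interaction, whose Tg ratios (circles) lie far to the left of their KI ratios (squares), whereas both ratios of *Nefh*, *Foxp2*, *Plcb4* and *Hpca*, at the bottom, lie near 0.

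*Rgs8* (chr1:153652789-153701529, mm10), a PC regulator that shortens G protein signalling, had the largest negative interaction of the list. It read 214, 216 and 199 FPKM in WT/FVB and 75.8, 67.4 and 72.5 in Tg. In WT/C57 it read 256, 307 and 276 FPKM, and in KI 205, 222 and 200. All mutant libraries were below their controls in both models, with a far wider gap in Tg. The log2 ratio was -1.54 ± 0.07 in Tg and -0.42 ± 0.07 in KI (limma adjusted p = 0.072, 0.010 with the block in the KI table and 0.036 with it in both), and the interaction was -1.13 ± 0.10 (adjusted p = 0.00031).

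*Stk17b* (chr1:53755512-53785215), a serine/threonine kinase of the death-associated family, had the smallest p of the interaction. Its levels were 38.8, 41.4 and 36.5 FPKM in WT/FVB and 15.2, 13.9 and 14.03 in Tg. The WT/C57 libraries read 39.8, 41.6 and 42.6 FPKM and the KI libraries 35.9, 37.5 and 39.0. The fall was thus wide in Tg, whereas the KI libraries lay just under their controls. The interaction was -1.29 ± 0.08 (limma adjusted p = 4.2e-05), from -1.43 ± 0.06 in Tg and -0.14 ± 0.06 in KI.

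Along the calcium pathway, *Homer3*, a scaffold that ties metabotropic receptors to the calcium store, had an interaction of -0.76 ± 0.12 (limma adjusted p = 0.0079), with ratios of -1.07 in Tg and -0.31 in KI. *Itpr1*, the inositol trisphosphate receptor, read 371, 421 and 359 FPKM in WT/FVB, 201, 186 and 198 in Tg, 358, 435 and 441 in WT/C57 and 313, 391 and 422 in KI. Its Tg libraries lay far below their controls, and its KI libraries overlapped theirs. *Car8*, which binds that receptor, had an interaction of -1.04 ± 0.11 (adjusted p = 0.00052). *Calb1*, the buffer calbindin, had ratios of -0.98 in Tg and -0.17 in KI, and an interaction of -0.81 ± 0.12 (adjusted p = 0.0069). *Atp2a3*, the pump SERCA3, stood at 84.2, 86.5 and 82.6 FPKM in WT/FVB and at 37.9, 35.0 and 38.4 in Tg. In WT/C57 it stood at 67.1, 78.1 and 72.4 FPKM and in KI at 61.0, 62.0 and 54.4, again without overlap but with the smaller gap. Its interaction was -0.89 ± 0.09 (adjusted p = 0.00058).

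*Gng13* (chr17:25716403-25727448), a G protein gamma subunit abundant in PCs, was the most abundant of the genes with the largest differences. It read 591, 579 and 553 FPKM in WT/FVB against 174, 147 and 143 in Tg, and 443, 571 and 490 in WT/C57 against 404, 370 and 290 in KI. Its interaction was -1.39 ± 0.18 (limma adjusted p = 0.0018). An exon of *Gng13* overlaps *Chtf18* on the other strand, and exons of *Homer3* overlap *Ddx49* and those of *Plcb3* overlap *Ppp1r14b* in the same way. Since the counting is not stated to use strand, reads of such pairs cannot be told apart.

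Other PC genes with called interactions were *Doc2b*, a calcium sensor of vesicle release (-1.01 ± 0.08, limma adjusted p = 0.00018), *Dner*, a transmembrane ligand of Notch through which PCs act on Bergmann glia (-0.71 ± 0.07, adjusted p = 0.00039), and *Cacna1g*, the T-type calcium channel Cav3.1 (-0.70 ± 0.11, adjusted p = 0.0071). Each was lower than its controls in all 3 Tg and all 3 KI libraries, with KI ratios of -0.29, -0.18 and -0.24. *Aldoc*, *Kitl* and *Skor2* fell in Tg without a called interaction, although that of *Aldoc* was called with the block in the KI table only. Not all PC genes passed the test in Tg. *Nefh*, the heavy neurofilament, had ratios of 0.11 in Tg and -0.01 in KI, and *Foxp2*, a transcription factor, 0.09 and 0.11, with overlapping libraries. *Plcb4*, the main phospholipase C beta of many PCs, had ratios of -0.13 and -0.11, and *Hpca*, the calcium sensor hippocalcin, -0.18 and 0.01, and the Tg libraries of both lay below their controls.

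Some PC genes were named on more than 1 row of a table and were left out of the test. With the rows of a gene summed, *Pcp2*, whose promoter drives the transgene, read 737, 664 and 648 FPKM in WT/FVB, 395, 342 and 368 in Tg, 685, 852 and 728 in WT/C57 and 637, 683 and 541 in KI. Its Tg ratio was -0.89 ± 0.10 and its KI ratio -0.28 ± 0.10, and the interaction of -0.61 ± 0.15 did not pass the test (limma adjusted p = 0.12). *Pcp2* shares exonic sequence with *Pet100* on the other strand. This gene was singled out after its values were seen.

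In the wider list of intracellular calcium signalling, 29 of 31 genes were tested, and 10 fell in Tg, 1 fell in KI and 8 were called in the interaction, all negative (all genes tested: 2.36%, 0.0648% and 0.826%). All 8 are also on the PC list. With the block in the KI table the KI ratio was called for 5 and the interaction for 9, and with the block in both tables for 1 and 8. The list's median was -0.13 in Tg and -0.11 in KI, close to each other. Among voltage-gated calcium channel genes *Cacna1g* and *Cacnb2* were called in the interaction, of 14 tested. *Cacnb2*, an auxiliary beta subunit, read 15.8, 15.5 and 15.1 FPKM in WT/FVB, 10.2, 9.57 and 9.89 in Tg, 14.1, 14.6 and 14.2 in WT/C57 and 12.6, 12.5 and 14.1 in KI. Its interaction was -0.50 ± 0.08 (limma adjusted p = 0.0095). None of the 10 sodium channel genes tested was called in the interaction, and their medians were -0.04 in Tg and -0.05 in KI. *Scn4b*, the member with the smallest p, had an interaction of -0.13 (adjusted p = 0.95).

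Of the ionotropic glutamate receptor genes 15 were tested, 3 fell in Tg and 1 was called in the interaction, *Grik1*, a kainate receptor subunit, at -0.60 ± 0.10 (limma adjusted p = 0.012), with -0.76 in Tg and -0.15 in KI. Among 26 metabotropic receptor and postsynaptic scaffold genes, 7 fell in Tg and 1 in KI. Their interaction was called for *Homer3* and, with the opposite sign, for *Grm4*. For this list the block in both tables gave 1 call in KI and 5 in the interaction. The block in the KI table only gave 5 calls in KI and 5 in the interaction. Among 19 GABA genes the only one called was *Gabbr2*, a subunit of the GABA-B receptor, in both ratios and in the interaction. The shares over all genes tested were 2.36% called lower in Tg, 0.0648% lower in KI and 0.826% in the interaction.

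The largest negative interactions outside the PC list were those of *Gm13944* (-1.91 ± 0.24), *Fgf7* (-1.86 ± 0.21), *Gchfr* (-1.50 ± 0.20), *Trabd2b* (-1.42 ± 0.14), *Tspan11* (-1.36 ± 0.13), *Gpr63* (-1.32 ± 0.11) and *Espn* (-1.12 ± 0.19), with *Gng13* (-1.39) and *Stk17b* (-1.29) in between. *Gm13944* is an antisense transcript within *Zfp385b*, and its deposited locus, chr2:77410627-77816816, covers that gene, so that its reads may come from either. *Fgf7*, a secreted growth factor (chr2:125859109-126152004), read 14.9, 14.7 and 13.3 FPKM in WT/FVB and 3.90, 3.52 and 3.76 in Tg. In WT/C57 it read 5.28, 8.06 and 7.10 FPKM and in KI 5.85, 5.89 and 7.98, a full overlap. The Tg ratio of -1.91 ± 0.15 thus stood beside a KI ratio of -0.04 ± 0.15 (interaction adjusted p = 0.00079, limma).

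*Gpr63*, an orphan G protein-coupled receptor, read 18.7, 18.7 and 17.9 FPKM in WT/FVB against 6.08, 5.90 and 5.80 in Tg, and 21.1, 24.7 and 24.4 in WT/C57 against 16.9, 20.2 and 20.1 in KI. All mutant libraries were below their controls, and with the block in the KI table its KI ratio was called (limma adjusted p = 0.012, 0.042 with the block in both tables and 0.26 without a block). *Trabd2b*, a metalloprotease that acts on Wnt proteins, had a KI ratio of -0.48, *Tspan11*, a tetraspanin, one of -0.35 and *Espn*, an actin-bundling protein, one of -0.32, each below 0 without a called KI ratio (for *Trabd2b*, limma adjusted p = 0.046 with the block in the KI table and 0.073 with it in both). Their Tg ratios were -1.90, -1.70 and -1.44.

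**Figure D3:**
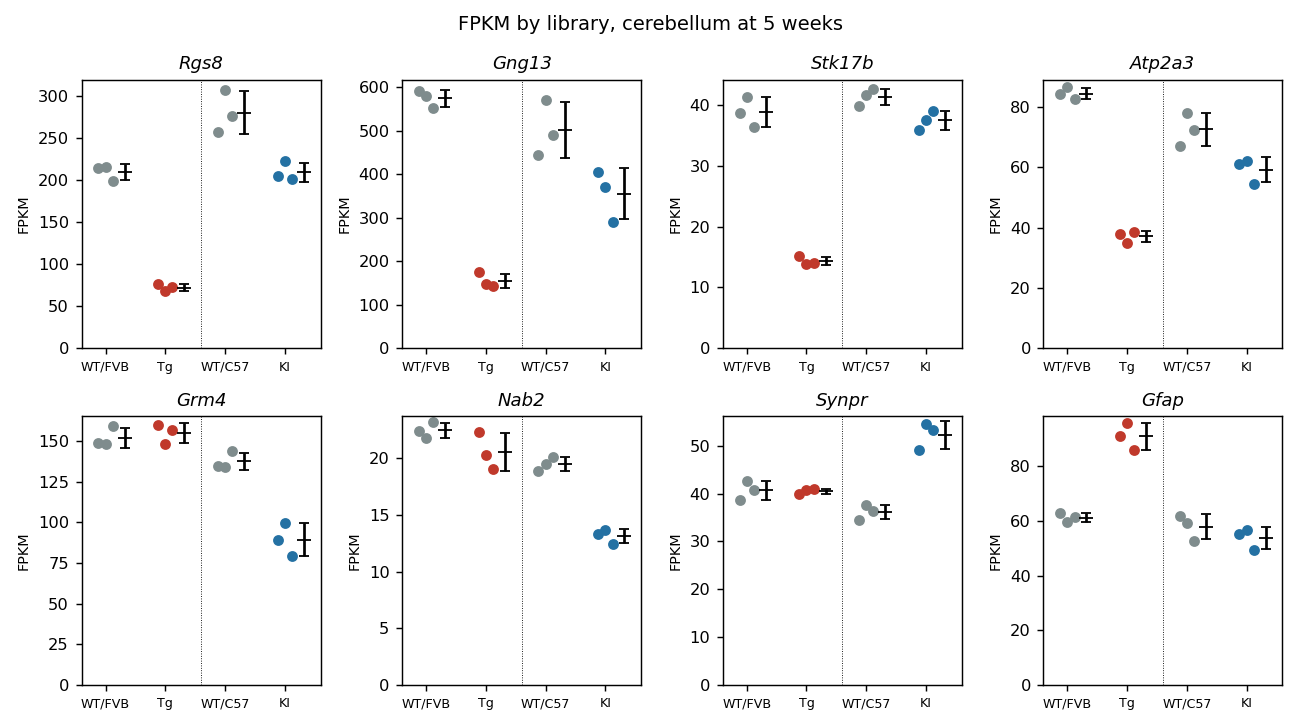
FPKM in each of the 12 libraries for genes with called interactions, on linear axes from 0; points are single mice, and the bars beside them are the group mean and SD (n = 3). Tg points lie far below WT/FVB points for *Rgs8*, *Gng13*, *Stk17b* and *Atp2a3*, where KI points lie closer below WT/C57 points, while *Grm4*, *Nab2* and *Synpr* are set apart from their controls in KI and *Gfap* in Tg.

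Both ratios were called for 5 genes, all of them lower in both models. With the block in the KI table the same 5 were among 52 genes called in both, again all lower. With the block in both tables they were among 22, of which 21 were lower in both models and 0 higher in both. With each table fitted by itself the KI ratio was called for 1 gene, *Igfbp5*, also called in Tg. *Plcb3* (chr19:6938070-6970721), a phospholipase C beta that Gq proteins activate, read 18.5, 19.3 and 19.3 FPKM in WT/FVB and 8.33, 7.93 and 7.87 in Tg. The KI table had 15.7, 15.0 and 14.4 FPKM in WT/C57 and 10.2, 10.6 and 10.1 in KI. The groups did not overlap. It fell by 1.23 ± 0.05 on the log2 scale in Tg and by 0.54 ± 0.05 in KI, and the interaction was -0.69 ± 0.07 (limma adjusted p = 0.00052).

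*Gchfr*, which regulates the first enzyme of tetrahydrobiopterin synthesis, fell from 17.2, 18.5 and 17.1 FPKM in WT/FVB to 3.55, 2.89 and 3.21 in Tg and from 3.15, 2.97 and 2.92 in WT/C57 to 2.04, 1.40 and 1.28 in KI. The ratios were -2.42 and -0.92. The WT libraries of the 2 tables differed widely in level for this gene, and the offset of 0.1 FPKM weighs more on the lower. *Fam107b* fell by 1.39 in Tg and by 0.47 in KI (interaction -0.93 ± 0.10, limma adjusted p = 0.00078). *Gabbr2* read 75.3, 76.7 and 76.0 FPKM in WT/FVB, 49.5, 48.7 and 50.4 in Tg, 67.0, 70.1 and 68.9 in WT/C57 and 54.0, 57.1 and 54.0 in KI, with ratios of -0.62 and -0.32. Its interaction of -0.30 ± 0.06 (adjusted p = 0.036) was lost in 10 of the 12 fits without 1 library. *Igfbp5*, the last of the 5, is described with the genes lower in KI.

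The genes that fell in Tg were mostly below 0 in KI too. Of the 292, the KI ratio was below 0 in 265 (90.8%), against 50.6% of all genes tested. It was lower with an unadjusted p under 0.05 in 142 (48.6%), against 4.65% of all genes, and higher with such a p in 1, *Sdc2*, a cell surface proteoglycan named after its value was seen. All KI libraries were below all WT/C57 libraries in 132 (45.2%), against 5.21%. The Tg and KI ratios share no mice, but their p-values use the same estimate of spread for each gene. The share of 48.6% is therefore not independent of the Tg call. Without the libraries numbered 1 of the KI table, 260 of the 292 had a KI ratio below 0. The KI ratio itself was called in 5 of the 292, and the calls in both ratios depend on the fit as given above. For the 91 of these genes with a called interaction the median ratio was -0.89 in Tg and -0.20 in KI, and for the 201 others -0.47 and -0.15. The mean of both ratios was called for 282 genes (2.28%), 268 of them lower (2.17%). Of those 282 genes, 94 were also called in the interaction. Of the 14 genes that rose in Tg, 5 had a KI ratio below 0, and the medians were 0.48 in Tg and 0.04 in KI.

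The interaction was positive for 6 genes (0.0486% of all genes tested), which fall into those higher in Tg and those lower in KI. *Gfap* (chr11:102887336-102897200), the intermediate filament of astrocytes, read 62.8, 59.6 and 61.3 FPKM in WT/FVB and 91.2, 95.8 and 86.1 in Tg. Its WT/C57 level was 61.8, 59.2 and 52.7 FPKM and its KI level 55.1, 56.8 and 49.2. Tg libraries were all above their controls, whereas KI libraries overlapped theirs. The ratio was 0.57 ± 0.07 in Tg and -0.11 ± 0.07 in KI, and the interaction 0.68 ± 0.10 (limma adjusted p = 0.0058).

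*Padi2*, a peptidylarginine deiminase of glia that modifies myelin basic protein and GFAP, rose from 10.7, 10.5 and 10.2 FPKM to 13.6, 15.2 and 14.1 in Tg. It read 6.76, 7.03 and 6.08 in WT/C57 and 5.65, 6.09 and 5.38 in KI, where 1 KI library exceeded the lowest control. The interaction was 0.66 ± 0.10 (limma adjusted p = 0.0068). *Gfap* was the only one of 21 Bergmann glia and astrocyte genes tested that was called in the interaction, and the list's medians were 0.03 in Tg and -0.02 in KI.

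*Grm4* (chr17:27422388-27513491), the metabotropic glutamate receptor of granule cell terminals, was lower in KI alone. It read 148, 148 and 159 FPKM in WT/FVB and 160, 148 and 157 in Tg, which overlapped. In WT/C57 it read 135, 134 and 143 FPKM and in KI 89.2, 99.2 and 79.1, all below. The ratio was 0.03 ± 0.07 in Tg and -0.63 ± 0.07 in KI (limma adjusted p = 0.0043), and the interaction 0.66 ± 0.10 (adjusted p = 0.0095). It was the only one of 26 granule cell genes tested that was called. The list's medians were -0.00 in Tg and -0.11 in KI, with 18 of 26 below 0 in KI, against 50.6% of all genes tested.

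*Igfbp5*, which binds insulin-like growth factors, read 72.7, 67.4 and 69.9 FPKM in WT/FVB and 54.9, 51.4 and 46.5 in Tg, and 52.3, 55.4 and 53.6 in WT/C57 and 24.2, 28.2 and 28.9 in KI. It fell by 0.46 ± 0.07 in Tg and by 0.99 ± 0.07 in KI, the only one of the 5 genes called in both that fell further in KI (interaction 0.53 ± 0.11, limma adjusted p = 0.040). *Nab2*, a corepressor of EGR factors, read 18.9, 19.5 and 20.1 FPKM in WT/C57 and 13.3, 13.7 and 12.5 in KI, a fall of 0.57, beside a Tg ratio of -0.13 that was not called (interaction 0.44 ± 0.09, adjusted p = 0.046, and 0.072 with the replicate block in both tables). Exons of *Nab2* overlap *Stat6* and *Nemp1* on the other strand. *Ccdc63*, a coiled-coil protein whose exons overlap *Myl2* on the other strand, fell in KI from 5.72, 5.98 and 6.22 to 2.99, 3.55 and 3.08 FPKM (interaction 0.85 ± 0.16, adjusted p = 0.031). Without 1 of the 12 libraries the interaction call was lost in 9 fits for *Igfbp5*, in 9 for *Ccdc63* and in 11 for *Nab2*, and in none for *Grm4*, *Gfap* or *Padi2*.

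The 3 genes that rose in KI were also called in the interaction and had Tg ratios near 0. They fall outside the rule for named genes and were singled out after their values were seen. *Synpr*, the synaptic vesicle protein synaptoporin, read 34.5, 37.6 and 36.3 FPKM in WT/C57 and 49.1, 54.5 and 53.3 in KI, and 38.7, 42.7 and 40.7 in WT/FVB and 39.9, 40.7 and 40.9 in Tg (interaction -0.54 ± 0.08, limma adjusted p = 0.0049). *Necab1*, a neuronal calcium-binding protein, rose by 0.64 ± 0.07 in KI and had a Tg ratio of 0.02. *Marcks*, a substrate of protein kinase C that binds the membrane and actin, rose by 0.45 ± 0.05 in KI and had a Tg ratio of 0.01.

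Lists of other cell types and pathways held few or no called interactions. None was called among 19 microglia genes, but 18 of them had a Tg ratio above 0, where 52.3% of all genes were below it, with a median of 0.26 against -0.02 in KI. Summed, they read 154 to 157 FPKM in Tg against 127 to 140 in WT/FVB, and 131 to 168 in KI against 132 to 157 in WT/C57. *Fcrls*, the member with the smallest p, had an interaction of 0.63 ± 0.19 (limma adjusted p = 0.28). With the block in the KI table it was 1 of 3 microglia genes called (adjusted p = 0.020). With the block in both tables no microglia gene was called in the interaction (*Fcrls*, limma adjusted p = 0.062). None of 22 oligodendrocyte genes was called, with medians of 0.06 in Tg and -0.01 in KI (*Cspg4*, 0.36, adjusted p = 0.71). None of 18 endothelial and mural cell genes was called (medians -0.07 and -0.04; *Pdgfrb*, 0.22, adjusted p = 0.65), nor any of 20 leptomeningeal genes (medians 0.19 and -0.10; *Slc22a6*, 0.46, adjusted p = 0.62). Among 15 interneuron genes *Prkcd* was called lower in Tg and none in the interaction (*Tfap2b*, 0.29, adjusted p = 0.52). Of 7 unipolar brush cell genes tested and of 3 erythrocyte genes, 1 each was called in the interaction. The 19 choroid plexus genes tested had medians of -0.80 in Tg and -0.14 in KI without a call (*Sulf1*, 0.31, adjusted p = 0.87), beside the spread of summed levels given above, and their part in the other results was not tested. Of the 6 genes of neighbouring regions tested none was called (*Th*, -0.59, adjusted p = 0.63).

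**Figure D4:**
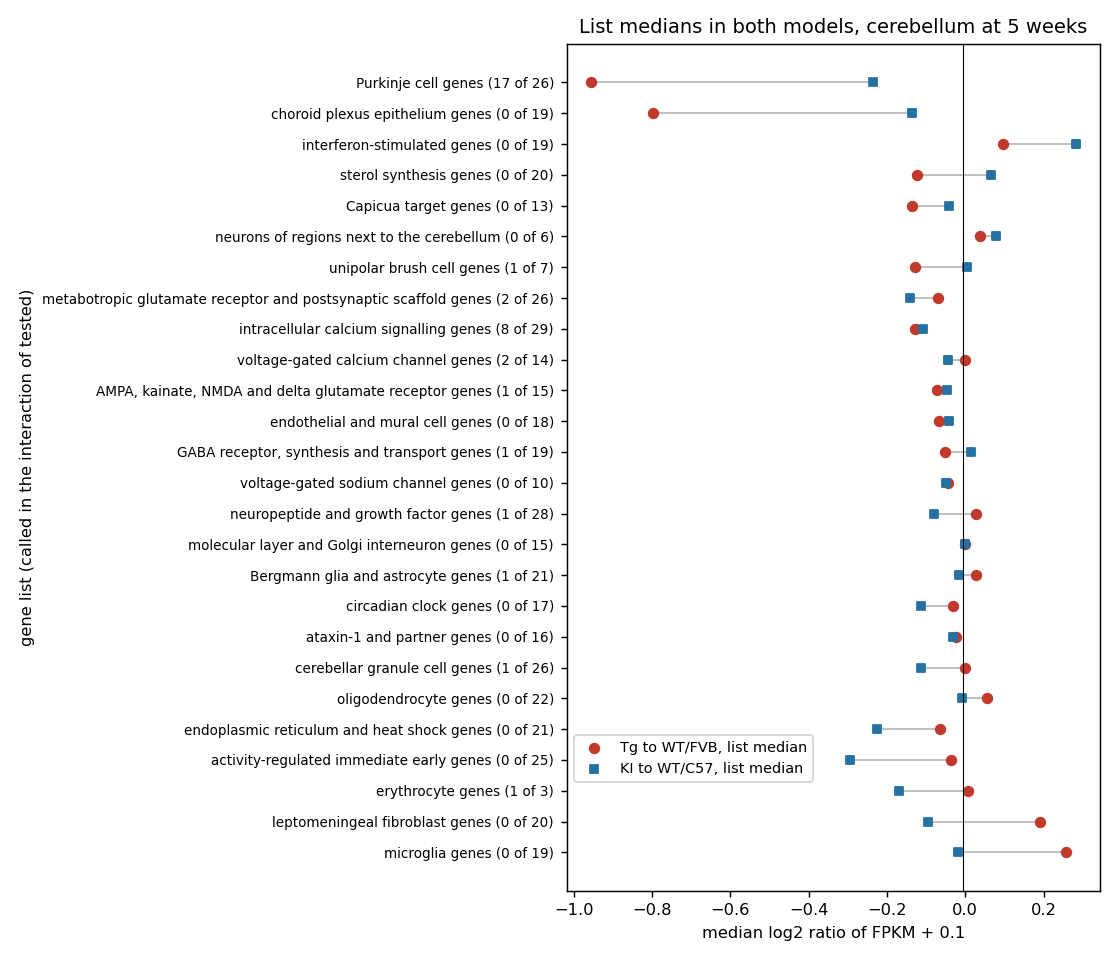
Median log2 ratio of each gene list in Tg and in KI. Each list is a pair of points, circles for Tg and squares for KI, with the number of its genes called in the interaction of those tested beside its name. In Tg the medians of PC genes (-0.96) and choroid plexus genes (-0.80) lie far below those of the other lists, which run from -0.14 to 0.26, and in KI all medians lie between -0.30 and 0.28.

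Immediate early genes, which neuronal activity switches on, had medians of -0.04 in Tg and -0.30 in KI. In KI 21 of 25 were below 0, against 50.6% of all genes tested, and none was called (*Gadd45b*, interaction 0.42, limma adjusted p = 0.42). Interferon-stimulated genes had medians of 0.10 and 0.28 over 19 tested, again with none called (*Psmb8*, 0.68, adjusted p = 0.67). Of 20 sterol synthesis genes, 19 had a Tg ratio below 0 and 15 a KI ratio above 0, with medians of -0.12 and 0.06 and none called (*Nsdhl*, -0.34, adjusted p = 0.11). Over all genes tested, 52.3% of Tg ratios and 50.6% of KI ratios were below 0. Endoplasmic reticulum and heat shock genes had medians of -0.07 and -0.23 over 21 tested (*Hspb1*, 0.74, adjusted p = 0.50), and clock genes -0.03 and -0.11 over 17, without a call. *Rora*, a nuclear receptor of PCs that belongs to the clock list, to that of ataxin-1 and its partners and to the PC list, read 54.5, 56.6 and 56.2 FPKM in WT/FVB, 41.4, 39.0 and 45.2 in Tg, 47.2, 55.3 and 58.7 in WT/C57 and 44.5, 53.7 and 59.6 in KI. All Tg libraries lay below their controls and the KI libraries overlapped theirs. The interaction was -0.38 ± 0.15 and its call depended on the block (limma adjusted p = 0.55 without it, 0.047 with the block in both tables and 0.031 with the block in the KI table).

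Of 13 Capicua target genes, 12 had a Tg ratio below 0 and 8 a KI ratio below 0, against 52.3% and 50.6% of all genes tested. Their medians were -0.14 and -0.04, and none was called. *Dusp5*, a phosphatase of ERK and the member with the smallest p, read 44.9, 42.5 and 47.4 FPKM in WT/FVB, 43.5, 42.9 and 44.6 in Tg, 49.2, 46.9 and 43.0 in WT/C57 and 28.6, 38.5 and 25.7 in KI. Its KI libraries were all below their controls (interaction 0.56 ± 0.16, limma adjusted p = 0.27, 0.044 with the block in the KI table and 0.10 with it in both). The 16 genes of ataxin-1 and its partners had medians of -0.02 and -0.03 without a call. Of 28 neuropeptide and growth factor genes, 3 fell in Tg, 1 fell in KI and *Igfbp5* was called in the interaction, against 2.36%, 0.0648% and 0.826% of all genes. In the interaction 1 further gene was called under the block in the KI table, and 3 genes in all under the block in both tables.

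At the threshold, the genes just inside were *Fgd3*, a guanine nucleotide exchange factor of Cdc42 (-0.52, limma adjusted p = 0.048), and *Rnf115*, a ubiquitin ligase (-0.29, adjusted p = 0.048). Just outside were *Bcar1*, an adaptor of focal adhesions (-0.58, adjusted p = 0.053), and *Rdh11*, a retinol dehydrogenase (-0.40, adjusted p = 0.055). With the replicate block in both tables *Fgd3* lost its call (limma adjusted p = 0.072) while *Bcar1* and *Rdh11* gained one (0.018 each), and with the block in the KI table all 4 were called. *Rnf115* was one of 3 genes called in the interaction and in neither ratio.

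Other mice of the same 4 genotypes were sequenced at 12 weeks, and the same fit called the interaction for 1437 of 12307 genes (11.7%), the Tg ratio for 1320 (10.7%) and the KI ratio for 882 (7.17%). The 12 week interaction count was lower by more than 1.5 times without KI replicate 1 (736), KI replicate 2 (819), WT/FVB replicate 1 (876) or Tg replicate 3 (905) of that age. Of the 102 genes of 5 weeks, 100 were tested at 12 weeks, 99 had the same sign (the exception was *Nab2*, at -0.19) and 89 were called. The 94 negative genes tested at both ages had medians of -1.12 in Tg and -0.33 in KI at 12 weeks, beside -0.87 and -0.18 at 5 weeks, the values that chose them. The KI ratio was called lower at 12 weeks in 46, against 4.75% of all genes at that age. *Rgs8* went from -1.54 to -2.27 in Tg and from -0.42 to -0.61 in KI, where it passed the test at 12 weeks (limma adjusted p = 0.0018). *Gfap* had an interaction of 1.36 and *Padi2* one of 1.56 at 12 weeks, both called. *Grm4* at 12 weeks was lower in KI by -0.64 and had a Tg ratio of -0.42, and its interaction of 0.22 was not called.

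**Figure D5:**
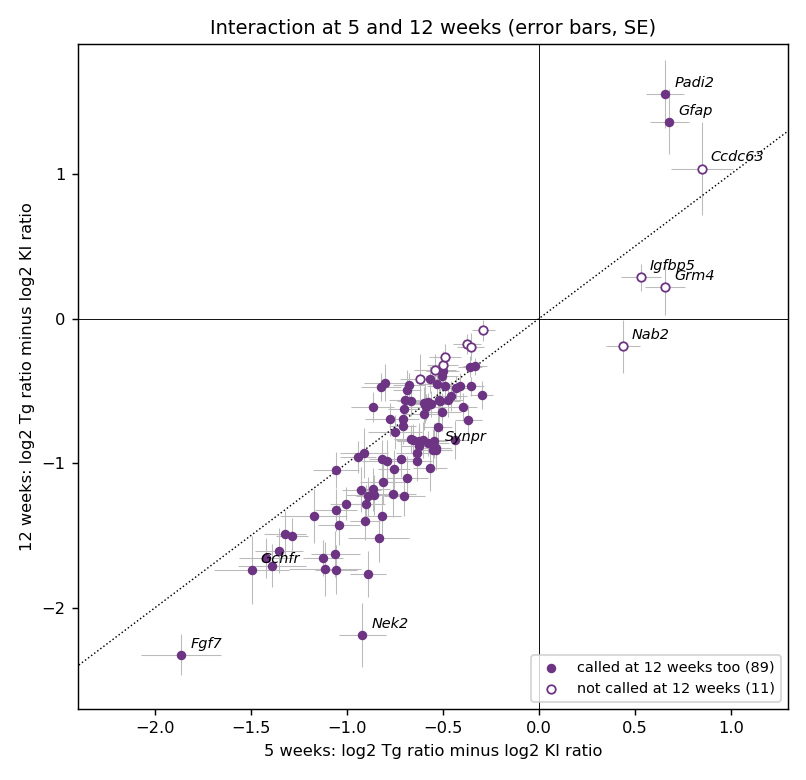
Model by genotype interaction (log2) at 5 weeks on the horizontal and at 12 weeks on the vertical axis for the 100 genes called at 5 weeks and tested at both ages, with standard errors; filled points were called at 12 weeks too (89). Points below the dotted line of equal values on the left side are more negative at 12 weeks, and *Nab2* alone has changed sign.

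The change of the interaction between the ages was itself called for 0 of 11808 genes (0%) by limma, and had an unadjusted p under 0.05 for 1963 (16.6%), with 0.060 as the smallest adjusted p. Without WT/C57 replicate 1 of 5 weeks, 1 of the libraries that stand apart, the count was 216, and without WT/C57 replicate 2 of 12 weeks it was 28. The change of the Tg ratio was called for 11 genes (0.0932%), of which 7 were among the 102, and that of the KI ratio for 0, with an unadjusted p under 0.05 for 1219 (10.3%). Those 7 were *Rgs8*, *Atp2a3*, *Fgf7*, *Igfbp5*, *Nek2*, *Col18a1* and *Icmt*, all of them lower at 12 weeks. The change of the Tg ratio was -0.72 ± 0.12 for *Rgs8*, -0.90 ± 0.14 for *Atp2a3* and -0.99 ± 0.19 for *Fgf7* (limma adjusted p = 0.033, 0.024 and 0.045).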

How the data were processed

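Cerebellum RNA-seq libraries of 12 male mice at 5 weeks and of 12 others at 12 weeks were used, 3 per group, each from 1 mouse. Groups were taken from the sample labels. Per the submitters' notes and methods, the authors aligned reads to mm10 with TopHat2 2.1.0 and made the deposited FPKM values per gene with Cufflinks 2.2.1 (Cuffnorm and Cuffdiff), each table of 6 libraries normalised by itself. Read counts, and so absolute depth, are not known from FPKM, and whether counting used strand is not given in the sources used here. The tables' Cuffdiff fold changes, p and q values and group averages, and the inferior olive tables, were not used.

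Genes were joined by symbol. Of 26436 and 26892 rows, 11.1% and 12.5% have no usable symbol, 25 symbols in each table had been turned into numbers, and 423 and 443 symbols on more than 1 row were dropped from the main fit. Genes whose group means all reached 0.5 FPKM were fitted on log2(FPKM + 0.1) with limma 3.58.1 (R 4.3.3; eBayes with a mean-variance trend, 1 mean per group, two-sided) and adjusted by the Benjamini-Hochberg method, with calls at an adjusted p under 0.05. At 5 weeks the KI and WT/C57 libraries of the same number deviated together (r across genes 0.56, 0.11 and 0.12, all above the limit of 0.1). Nothing in the labels says what they share. The Tg and WT/FVB libraries did not (-0.01, -0.08 and 0.23), nor did those of either table at 12 weeks. The main fit treated no libraries as paired, and blocks by replicate number were used in alternative fits only.

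The genes compared, the 26 gene lists and the tests were chosen with earlier results of these data known. Named genes were *Atxn1*, up to 10 called genes of each sign with the largest interaction and at least 1 FPKM in all groups, genes called in both ratios, up to 4 called members of each list (or the member with the smallest p), and the genes next to the threshold. The fit was tested on simulated data with known changes in the Tg libraries of 200 genes, with errors drawn independently for each library. The interaction was called for 85.5% of these genes at a log2 change of 1 and for 35.5% at 0.5. Of all calls, 12 of 183 were false at a change of 1 and 7 of 78 at 0.5. A gene without a call may thus still differ. Alternatives were other offsets and filters, rescaling by median ratios, replicate blocks, other variance settings, each table by itself, and leaving out libraries. Promoters of 16 of 19 genes looked for were in the RefSeq table, and loci are those of the deposited tables. The values of some genes are not reported here.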

Additional observations from a re-analysis of the deposited data

Results flagged for a closer look

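The test of the difference between the Tg and the KI ratio itself was passed by 102 genes, all at 5 weeks in the cerebellum, and most of the named ones are listed here with that difference (log2 Tg ratio minus log2 KI ratio; limma, adjusted p under 0.05). Groups of 3 are too small for a search for single outlying mice.

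Among PC and calcium pathway genes the difference was -1.13 for *Rgs8*, -1.04 for *Car8*, -1.01 for *Doc2b*, -0.89 for *Atp2a3*, -0.76 for *Homer3*, -0.71 for *Dner*, -0.70 for *Cacna1g*, -0.69 for *Plcb3* and -0.50 for *Cacnb2*. Among receptors and G protein genes it was -1.39 for *Gng13*, -1.32 for *Gpr63*, -0.60 for *Grik1* and -0.30 for *Gabbr2*.

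Of the other genes more negative in Tg than in KI, it was -1.91 for *Gm13944*, -1.86 for *Fgf7*, -1.50 for *Gchfr*, -1.42 for *Trabd2b*, -1.36 for *Tspan11*, -1.29 for *Stk17b*, -1.12 for *Espn*, -0.93 for *Fam107b*, -0.52 for *Fgd3* and -0.29 for *Rnf115*. The positive differences were 0.85 for *Ccdc63*, 0.68 for *Gfap*, 0.66 for *Padi2*, 0.66 for *Grm4*, 0.53 for *Igfbp5* and 0.44 for *Nab2*.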

How the results depend on the processing

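The 48 named genes gave 670 interaction values under the alternatives, of which 617 kept the direction and the side of the threshold, 31 lost a call, 22 gained one and 0 reversed. Leaving out 1 library at a time gave 66 to 141 genes called in the interaction, 7 to 20 in the KI ratio, 736 to 1833 in the 12 week interaction and 0 to 216 in the change between the ages; median ratio rescaling gave 2 for that change. With the replicate block in both tables, calls were 35 in the KI ratio, 147 in the interaction and 944 in the 12 week interaction. With the block in the KI table only, chosen after seeing the data, they were 100 in the KI ratio, 180 in the interaction and 472 in the mean of both ratios. The block moved the count of no other comparison by over 1.5 times; where it changed the interaction call of a named gene, the blocked value stands beside that gene. Only KI replicate 1 of the 3 KI libraries correlates best with its own number. With each table fitted by itself, 520 genes were called in Tg and 1 in KI. With library weights, whose estimation stopped before it converged, 1146 were called in the interaction, 687 in Tg, 3073 in KI and 1721 in the mean of both. The cause of these shifts was not tested. Other offsets, filters, scaling and variance settings gave 94 to 102 interaction calls. FPKM without counts limits what can be said of genes of low level.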

Other observations

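Genes on more than 1 row of a table were left out of the main comparison. With their rows summed, 12728 genes were tested, 378 of them in addition, and 108 were called in the interaction. Among the 6 additional genes called were *Gabbr1*, *Ptprr*, *Fam174b* and *Ppapdc2*. *Gabbr1*, the partner of *Gabbr2* in the GABA-B receptor, read 226, 227 and 215 FPKM in WT/FVB, 143, 132 and 133 in Tg, 158, 161 and 156 in WT/C57 and 129, 137 and 131 in KI. Neither model had an overlap with its controls, and the interaction was -0.45 ± 0.07 (limma adjusted p = 0.0065). *Ptprr*, a tyrosine phosphatase of MAP kinases, had ratios of -0.56 in Tg and -0.04 in KI (interaction adjusted p = 0.0028, limma). All 6 were negative.

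Of the 11 genes whose Tg ratio changed between 5 and 12 weeks, 4 had no called interaction at 5 weeks. Among these, *Tnc*, the matrix protein tenascin C, went from -0.91 to -2.21 in Tg, *Sema7a*, a membrane-anchored semaphorin, from -0.38 to -0.85, and *Alad*, an enzyme of heme synthesis, from -0.18 to -0.70 (limma adjusted p = 0.033 for *Tnc*, 0.045 for *Sema7a* and 0.045 for *Alad*).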
